A study of Rattus norvegicus with 2 samples.

Results

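The 40 genes described here are a list of DNA replication and S phase genes. They were chosen by name and not by a measured value, though with earlier results of these data known. All 40 were found among the 18256 genes that the gene lists of 2 single-cell RNA libraries name. By role they are 10 genes of helicase loading and origin firing, 7 polymerase, clamp and fork genes, 3 genes of nucleotide supply, 7 of histone supply and chromatin maintenance, 4 cyclin, E2F and protein turnover genes, 3 fork checkpoint genes and 6 DNA repair genes. Both libraries come from IEC-6, an epithelial cell line of rat small intestine. The library labelled TNF holds cells given 100 ng/mL of recombinant rat tumor necrosis factor, an inflammatory cytokine, for 72 hours in each of 10 cycles. The other library is the control, which the design of the study gives as phosphate-buffered saline, also for 10 treatments. The questions are how replication genes stood in the TNF-labelled cells against the control cells, and how they stood, within each library, in cells rich in Top2a against cells with no Top2a count.

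A dividing cell copies its genome in S phase. Before S phase, Cdc6 and its partners load rings of MCM proteins onto replication origins. Cdc45 and the GINS proteins then turn each ring into a moving helicase, primase and polymerase alpha start the new strands, and the sliding clamp Pcna holds the main polymerases on DNA. Many of these genes are known targets of the E2F transcription factors, which the retinoblastoma protein restrains until cyclin-dependent kinases inactivate it on the way from G1 into S phase. Top2a, the topoisomerase that untangles copied chromosomes, is known to accumulate later, towards G2 and mitosis. The crypts of the intestinal lining divide rapidly in the animal, and IEC-6 is used as a model of crypt cells.

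After filtering there were 3457 TNF-labelled cells (14604393 counts in all, median 3566 per cell) and 5712 control cells (24207943 counts, median 2902.5). Levels are counts per 1000000 (CPM) of the summed cells, so that 1 count was worth 0.0685 CPM under the TNF label and 0.0413 CPM in the control. With 1 library per group there is no replicate and no test. Intervals in parentheses are exact 95% intervals of counting error alone. The sample titles begin with different prefixes of no stated meaning, so preparation and treatment cannot be told apart. Ccl2 and Cxcl1, chemokine genes that TNF is known to induce, stood at 60.9 against 969.8 CPM and 147 against 1502 CPM in the TNF-labelled against the control library. These genes go against the label, and every direction given here is that of the library labelled TNF, not of the treatment. Scaling by TMM factors, which centre the ratios on the bulk of genes, moved the median log2 ratio of all genes from -0.07 to 0.10. Of 14 epithelial markers 10 were found and 4 reached 10 CPM, with Krt8 at 2193 against 2456 CPM and Cdh1 at 313 against 424 CPM but Epcam at 4 counts in each library. The other 2 that reached it, Krt18 at 27.0 against 93.4 CPM and Spint2 at 36.7 against 140.2 CPM, were at least 2-fold lower under the TNF label. White blood cell markers summed to 1.64 and 6.16 CPM and endothelial markers to 5.82 and 5.95 CPM, while mesenchymal markers, led by Vim, summed to 2200.3 and 3459 CPM, and Col3a1 and Dcn of 5 tested were at least 2-fold lower under the TNF label. Another 2 of the 5 tested mesenchymal markers had ratios above 1. The part of these markers in the ratios below was not tested. The libraries shared 24 cell barcodes.

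The promoters show a feature that the choice by name did not use. E2F factors bind sites such as TTTGGCGC and TTTCGCGC, and either word was searched on both strands of the RefSeq promoters of the rat assembly GRCr8, from 250 bases before to 50 after each gene's start. The deposited counts were made on another build, Rnor_5.0, so these sequences serve only as a view of the genes. Of the 32 members with an entry, 14 (43.75%) held such a word, against 0.8923% of the 27457 genes of the table. So did 8 of 39 other replication genes (20.51%) and 2 of 23 retinoblastoma, E2F and cyclin genes (8.696%). A gene counted when any of its promoter entries held a word, and Wdr76 had 8 entries and Uhrf1 had 3. The other word searched, TTTGAA, is the cell cycle homology region known from promoters of mitotic genes. It was in 5 of the 32 member promoters (15.62%), against 19.44% of all genes, and in 31 of 49 promoters of G2 and M phase genes (63.27%), and 1 of the 49 held an E2F word. The members with an E2F word were Mcm2, Mcm3, Mcm5, Mcm6, Mcm7, Gmnn, Pola1, Tyms, Uhrf1, Dtl, Clspn, Tipin, Usp1 and Wdr76. No entry was matched for Mcm4, Cdc6, Dscc1, Rrm2, Casp8ap2, Ccne2, E2f8 or Blm. The windows of 100 bases below show the word in 4 subunits of the MCM ring, in polymerase alpha, in nucleotide supply, in turnover control and in Usp1. Prim1 and Ung, whose promoters held neither E2F word, are shown beside them. Capitals mark the matches, each window is written 5′ to 3′ on the strand of its gene, and coordinates are those of GRCr8.
Mcm2 (chr4:122918095-122918194, minus strand, 100 to 1 bases before the start): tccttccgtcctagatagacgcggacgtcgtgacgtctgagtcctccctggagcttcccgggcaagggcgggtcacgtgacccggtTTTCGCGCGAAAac
Mcm5 (chr19:13488563-13488662, plus strand, 250 to 151 bases before the start): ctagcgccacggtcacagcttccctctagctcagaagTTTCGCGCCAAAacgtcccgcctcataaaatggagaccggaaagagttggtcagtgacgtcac
Mcm6 (chr13:42404436-42404535, minus strand, 183 to 84 bases before the start): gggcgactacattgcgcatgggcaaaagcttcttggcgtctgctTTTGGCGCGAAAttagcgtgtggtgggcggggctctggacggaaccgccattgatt
Mcm7 (chr12:22163179-22163278, minus strand, 100 to 1 bases before the start): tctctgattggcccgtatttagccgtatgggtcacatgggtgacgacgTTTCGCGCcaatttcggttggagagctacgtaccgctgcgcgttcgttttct
Pola1 (chrX:62342474-62342573, minus strand, 218 to 119 bases before the start): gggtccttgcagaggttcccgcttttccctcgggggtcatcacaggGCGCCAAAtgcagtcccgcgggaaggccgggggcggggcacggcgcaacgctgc
Tyms (chr9:120776084-120776183, minus strand, 100 to 1 bases before the start): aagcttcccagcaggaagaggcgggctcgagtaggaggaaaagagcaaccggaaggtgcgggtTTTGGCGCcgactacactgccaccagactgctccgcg
Dtl (chr13:105685922-105686021, minus strand, 100 to 1 bases before the start): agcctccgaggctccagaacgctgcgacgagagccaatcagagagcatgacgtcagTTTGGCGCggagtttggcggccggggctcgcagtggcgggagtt
Usp1 (chr5:118702956-118703055, plus strand, 100 to 1 bases before the start): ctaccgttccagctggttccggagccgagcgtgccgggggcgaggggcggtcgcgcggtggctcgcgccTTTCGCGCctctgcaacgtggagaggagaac
Prim1 (chr7:1031362-1031461, plus strand, 100 to 1 bases before the start): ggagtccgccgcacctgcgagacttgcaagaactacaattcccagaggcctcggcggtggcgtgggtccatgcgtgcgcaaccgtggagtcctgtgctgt
Ung (chr12:48154046-48154145, minus strand, 100 to 1 bases before the start): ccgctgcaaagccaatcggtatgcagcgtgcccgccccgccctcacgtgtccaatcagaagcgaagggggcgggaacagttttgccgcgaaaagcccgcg
In Mcm2, Mcm5 and Mcm6 a pair of words on opposite strands overlapped. A match is a description of letters, and no binding was measured here.

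Between the libraries the replication genes did not move as a block. Prim1, the catalytic subunit of primase, and Wdr76, a repair-linked protein, stood at least 2-fold higher in the TNF-labelled library, while the helicase subunits Mcm2 and Mcm4, the flap nuclease Fen1 and the E2F and Myc target Cdca7 stood at least 2-fold lower. Of the MCM ring, 5 of 6 subunits had ratios of TNF-labelled over control between 0.377 and 0.664, and the remaining subunit Mcm6 had 1.28. Usp1, Tipin and Clspn, grouped here as fork checkpoint genes, all had ratios above 1, and the nucleotide supply genes Rrm1, Rrm2 and Tyms all below 1. The intervals of Clspn, Rrm2 and Tyms included 1, and TMM scaling put Rrm2 at 1.04 and Tyms at 1.07.

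A gene was counted as past the size rule when its levels differed at least 2-fold and the higher one reached 10 CPM. Of the 35 members that reached 10 CPM, 2 were higher and 4 lower by that rule, and 29 lay under 2-fold. Over all 8550 genes that reached 10 CPM, 5.27% were higher and 8.19% lower, so the shares of the members were near those of any gene. The median log2 ratio was -0.09 over the 40 members and -0.07 over all genes tested. With TMM factors, Fen1 fell short of the rule at 0.504, the members' median was 0.08, and all genes split into 8.77% higher and 5.19% lower. Uhrf1, Hells, E2f8, Exo1 and Brip1 stayed under 10 CPM in both libraries. A level summed over all cells cannot tell fewer cells in S phase from less RNA in each.

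**Figure D1:**
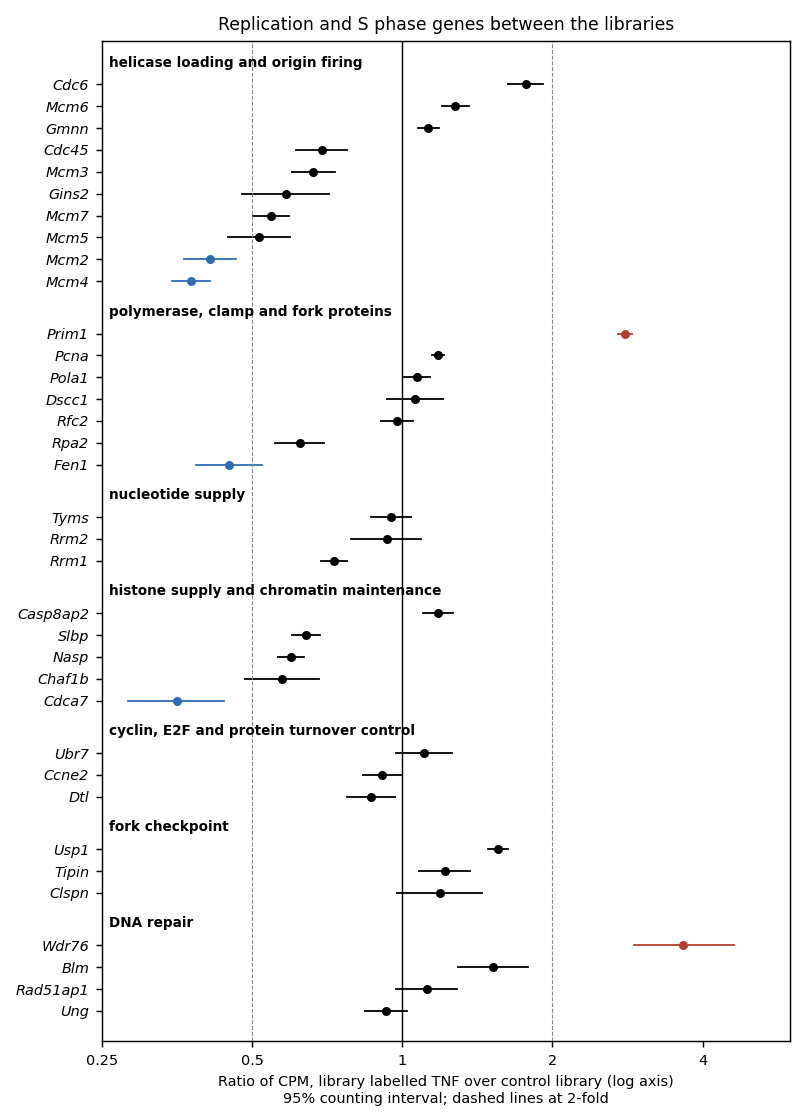
Ratio of CPM in the library labelled TNF over the control library (log axis) for the 35 genes that reached 10 CPM, grouped by role, with exact 95% counting intervals. Red points are at least 2-fold higher (Prim1, Wdr76) and blue points at least 2-fold lower (Mcm2, Mcm4, Fen1, Cdca7); 5 of the 6 MCM subunits lie left of 1 and Mcm6 lies right of it.

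Cells were then divided by their own Top2a counts into 4 classes, 0, 1, 2 and 3 or more. The replication genes stood higher in Top2a-rich cells of both libraries, and the step was larger in the TNF-labelled cells. Summed over the 40 genes, the level went 2182, 2702, 4112 and 5042 CPM along the classes of the TNF-labelled cells and 2359.9, 3029, 3863 and 3871 CPM in the control library. The class of 3 or more held 14.8% of the TNF-labelled cells, with 24.3% of all their counts and 39.7% of their member counts. In the control library it held 6.07% of the cells, with 13.4% of all counts and 18.5% of member counts. Ribonucleotide reductase subunit Rrm2, the helicase Blm, the recombination factor Rad51ap1, the checkpoint mediator Clspn and Pcna differed most, among the members that reached 10 CPM, between the class of 3 or more and the class of 0 in the TNF-labelled library, by 3.04 to 4.76 times. Of these, Rrm2, Blm and Clspn reached 10 CPM in the class of 3 or more but not in the class of 0.

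The ratio of the level in cells with 3 or more Top2a counts over that in cells with 0 is called the Top2a ratio here. In the TNF-labelled library 35 members reached 10 CPM in a class, and 22 of them had a Top2a ratio of at least 2 against 3.93% of 8267 genes, while 0 had a ratio of 0.5 or less against 0.641%. In the control library, 8 of 35 had a Top2a ratio of at least 2 against 2.42% of 8394 genes, and 0 a ratio of 0.5 or less against 0.572%. A gene entered these counts when either class reached 10 CPM, so it could enter through the higher class alone. Rrm2, Blm, Clspn, Gins2, Chaf1b and Exo1 did so in the TNF-labelled library, and Clspn and E2f8 in the control library, and all of these passed 2-fold there. The shares over all genes used the same rule. The median log2 Top2a ratio over all 40 members was 1.14 under the TNF label and 0.66 in the control, against -0.04 and -0.02 over all genes tested. Pcna, Rrm1, Rrm2, Clspn, Usp1, Blm and Rad51ap1 passed 2-fold in both libraries, which is 7 of the 22 and 7 of the 8. Of the 33 members that reached 10 CPM in both libraries, 31 had the larger Top2a ratio in the TNF-labelled library, and Slbp and Dtl had it in the control library. The share of all genes with the larger ratio in the TNF-labelled library was not computed, nor was the share past 2-fold in both. These counts therefore describe the members alone. Across those 33 genes the log2 Top2a ratios of the libraries had a Pearson r of 0.745 and a Spearman rho of 0.664, which describe genes and not replicates.

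The classes differed in more than Top2a. Cells with 3 or more Top2a counts had a median of 6580.5 counts in the TNF-labelled library against 3232 in cells with 0, and 7959 against 2585.5 in the control library. In the same order, TNF-labelled and then control, their median mitochondrial share was 2.97% against 3.60% and 2.80% against 4.18%. Summed epithelial markers stood at 2355 against 2645 CPM and 2710.3 against 3229 CPM, and summed mesenchymal markers at 1937 against 2331 CPM and 2856 against 3647 CPM. Nor was the top class alike in the libraries, since Top2a itself stood there at 1155 CPM in TNF-labelled and 521 CPM in control cells, and in the whole libraries at 355 against 136 CPM. Mki67, a proliferation marker, differed less, at 777 against 614 CPM in the top class and 350 against 296 CPM in the whole libraries. Cells with 3 or more Mki67 counts were 601 of 3457 TNF-labelled and 830 of 5712 control cells. In cells of 3000 to 10000 counts alone the classes still differed in depth, with medians of 6607 against 4655 counts in the TNF-labelled library and 6832 against 4582 in the control library. There 24 and 13 of 36 members of the TNF-labelled and the control library passed 2-fold, against 4.30% and 3.46% of all genes. In cells thinned to 1600 counts and classed by 0 against 2 or more Top2a counts, 15 and 4 of 34 did, against 5.24% and 6.06% of all genes. The parts of depth and of the markers in the Top2a ratios were not tested. With classes of Mki67 in place of Top2a the counts were 12 and 7 of 35, against 3.46% and 2.14% of all genes.

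**Figure D2:**
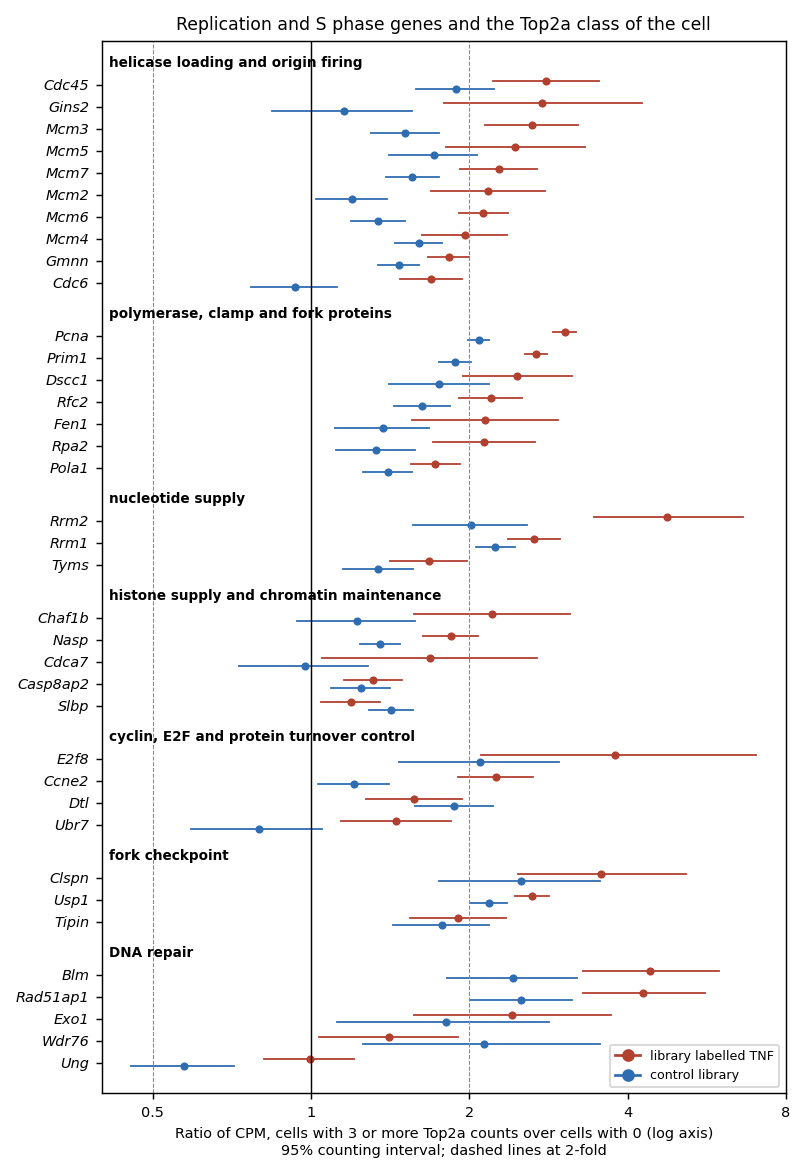
Top2a ratio, the CPM in cells with 3 or more Top2a counts over that in cells with 0 (log axis), in the library labelled TNF (red) and the control library (blue), with exact 95% counting intervals, for the 37 genes that reached 10 CPM in a class of either library. Red points lie right of blue ones for 31 of the 33 genes that reached 10 CPM in both libraries, and Ung lies at or left of 1 in both.

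The genes of helicase loading and origin firing differed between the comparisons. Most stood lower when all TNF-labelled cells were summed, with 7 of 10 ratios below 1. Over all genes tested, 3950 of 8550 ratios lay above 1. With Top2a, 7 of 10 passed 2-fold in the TNF-labelled library against 0 of 10 in the control library. Over all genes the shares past 2-fold with Top2a were 3.93% and 2.42%. Mcm2 (ENSRNOG00000016316), a subunit of the MCM ring, stood at 23.6 CPM under the TNF label (344 counts) against 57.2 CPM in the control (1385 counts), a ratio of 0.412 (0.365 to 0.464). Along the 4 classes Mcm2 stood at 17.2, 23.5, 23.0 and 37.2 CPM in TNF-labelled cells, a Top2a ratio of 2.17 (1.69 to 2.79). Control cells held Mcm2 at 52.9, 61.9, 68.0 and 63.3 CPM, a Top2a ratio of 1.20 (1.02 to 1.40) that turned to 0.938 in cells thinned to 1600 counts. The control cells were thus higher in every class, and the gap narrowed in the class of 3 or more, from a TNF-labelled over control ratio of 0.325 (0.267 to 0.392) at 0 Top2a counts to 0.588 (0.469 to 0.736). Mcm4 (ENSRNOG00000001833), another ring subunit, stood at 43.0 CPM under the TNF label (628 counts) against 114 CPM in the control (2761 counts), a ratio of 0.377 (0.345 to 0.411). Its classes held 32.2, 44.4, 49.6 and 63.2 CPM in TNF-labelled cells, a Top2a ratio of 1.96 (1.63 to 2.36). In control cells Mcm4 ran at 97.3, 121, 154 and 156 CPM, a Top2a ratio of 1.60 (1.45 to 1.78). Mcm4 was the only MCM subunit whose library ratio lay under 0.5 in both the class of 0 and the class of 3 or more, at 0.331 (0.288 to 0.380) and 0.405 (0.345 to 0.475).

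Mcm3, Mcm5 and Mcm7, which like Mcm2 and Mcm6 held an E2F word, had library ratios from 0.516 to 0.664. Mcm3 stood at 38.1 CPM under the TNF label (556 counts) against 57.3 CPM in the control (1388 counts), a ratio of 0.664 (0.601 to 0.733). Its levels along the classes were 23.3, 37.8, 73.8 and 61.2 CPM in TNF-labelled and 49.9, 60.2, 76.8 and 75.4 CPM in control cells. The Top2a ratio of Mcm3 was 2.63 (2.14 to 3.23) under the TNF label and 1.51 (1.30 to 1.75) in the control, so that its intervals did not overlap between the libraries. Mcm5 stood at 17.3 CPM under the TNF label (253 counts) against 33.5 CPM in the control (812 counts), a ratio of 0.516 (0.447 to 0.595). Along the classes Mcm5 had 11.2, 16.5, 32.7 and 27.4 CPM in TNF-labelled and 27.2, 36.8, 51.5 and 46.6 CPM in control cells. Its Top2a ratios were 2.45 (1.81 to 3.32) and 1.71 (1.41 to 2.07), with overlapping intervals. Mcm7 stood at 50.7 CPM under the TNF label (741 counts) against 92.9 CPM in the control (2248 counts), a ratio of 0.546 (0.502 to 0.594). TNF-labelled cells held Mcm7 at 36.5, 39.3, 79.9 and 83.0 CPM and control cells at 79.8, 98.7, 124 and 124 CPM. Its Top2a ratios of 2.27 (1.92 to 2.69) and 1.56 (1.39 to 1.75) did not overlap in their intervals. Mcm6 alone of the ring was higher in the TNF-labelled library, at 122 CPM under the TNF label (1787 counts) against 95.8 CPM in the control (2319 counts), a ratio of 1.28 (1.20 to 1.36). In cells with 0 Top2a counts Mcm6 was nearly level between the libraries, and it parted from the control with Top2a, with 88.8, 111, 179 and 189 CPM in TNF-labelled and 84.8, 103, 132 and 114 CPM in control cells. The Top2a ratio of Mcm6 was 2.13 (1.91 to 2.37) against 1.34 (1.19 to 1.51) in the control library. Any count of the 6 subunits was present, with every cell thinned to 1600 counts, in 32.0% (30.3 to 33.8) of the cells under the TNF label and in 45.9% (44.6 to 47.3) of the control cells. Without thinning the shares were 51.3% and 64.7%.

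The loading and firing factors around the ring went different ways. Cdc6, which loads the ring, stood at 86.2 CPM under the TNF label (1259 counts) against 48.8 CPM in the control (1181 counts), a ratio of 1.77 (1.63 to 1.91). TNF-labelled cells held Cdc6 at 65.9, 96.5, 128 and 111 CPM and control cells at 45.8, 54.9, 67.4 and 42.6 CPM. Its Top2a ratio was 1.69 (1.48 to 1.93) under the TNF label and 0.931 (0.769 to 1.12) in the control, where the interval includes 1. Within cells of 3 or more Top2a counts Cdc6 reached a library ratio of 2.62 (2.15 to 3.20). Cdc45, a part of the moving helicase, stood at 28.1 CPM under the TNF label (411 counts) against 40.8 CPM in the control (987 counts), a ratio of 0.690 (0.614 to 0.775). It ran at 17.8, 26.4, 33.9 and 49.9 CPM in TNF-labelled and 32.0, 46.1, 62.0 and 60.2 CPM in control cells. The Top2a ratios of Cdc45 were 2.80 (2.22 to 3.53) and 1.88 (1.59 to 2.23), so this partner of the ring passed 2-fold with Top2a in TNF-labelled cells while lower in that library when all cells are summed. Gins2, of the GINS complex, stood at 9.38 CPM under the TNF label (137 counts) against 16.0 CPM in the control (388 counts), a ratio of 0.585 (0.478 to 0.713). Along the classes Gins2 had 5.33, 11.7, 15.7 and 14.7 CPM in TNF-labelled and 14.7, 18.7, 17.5 and 17.0 CPM in control cells. Its Top2a ratio was 2.75 (1.79 to 4.27) under the TNF label and 1.15 (0.841 to 1.56) in the control, where the interval includes 1. Gmnn encodes geminin, which blocks new loading in S and G2 phase, and stood at 177 CPM under the TNF label (2587 counts) against 157 CPM in the control (3799 counts), a ratio of 1.13 (1.07 to 1.19). Gmnn ran at 139, 161, 243 and 255 CPM in TNF-labelled and 138, 169, 196 and 202 CPM in control cells, with Top2a ratios under 2 in both, 1.83 (1.67 to 2.00) and 1.47 (1.34 to 1.61).

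Among the polymerase, clamp and fork genes, Prim1 stood apart between the libraries and 6 of 7 passed 2-fold with Top2a in the TNF-labelled cells, against Pcna alone in the control cells. The shares over all genes were 3.93% and 2.42%. Prim1 (ENSRNOG00000031993), the primase subunit that makes the starting RNA of each new strand, stood at 619 CPM under the TNF label (9046 counts) against 221 CPM in the control (5359 counts), a ratio of 2.80 (2.70 to 2.89). Along the classes Prim1 had 412, 489, 849.8 and 1104 CPM in TNF-labelled cells, a Top2a ratio of 2.68 (2.55 to 2.81). Control cells held 183, 222, 304 and 344 CPM, a Top2a ratio of 1.88 (1.75 to 2.02). TNF-labelled cells were higher in each class, by 2.25 (2.14 to 2.38) at 0 and 3.21 (3.00 to 3.43) at 3 or more Top2a counts. Naca, its neighbour in GRCr8, had a ratio of 1.06 (1.04 to 1.08). Pcna, the sliding clamp, stood at 572 CPM under the TNF label (8353 counts) against 484 CPM in the control (11723 counts), a ratio of 1.18 (1.15 to 1.21). Its levels were 354, 468, 730.0 and 1077 CPM along the classes in TNF-labelled and 369, 533, 766 and 768 CPM in control cells, with Top2a ratios of 3.04 (2.89 to 3.19) and 2.08 (1.98 to 2.18). The library ratio of Pcna was 0.961 (0.917 to 1.01) in cells with 0 Top2a counts, an interval that includes 1, and 1.40 (1.33 to 1.47) in cells with 3 or more. Pola1, the catalytic subunit of polymerase alpha, stood at 126 CPM under the TNF label (1841 counts) against 118 CPM in the control (2852 counts), a ratio of 1.07 (1.01 to 1.13). Pola1 ran at 102, 114, 176 and 175 CPM in TNF-labelled and 101, 134, 167 and 141 CPM in control cells, and its Top2a ratios of 1.72 (1.55 to 1.92) and 1.40 (1.26 to 1.56) stayed under 2.

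Rfc2, a subunit of the factor that loads the clamp, stood at 77.0 CPM under the TNF label (1124 counts) against 78.9 CPM in the control (1910 counts), a ratio of 0.975 (0.905 to 1.05) that TMM scaling put at 1.09. TNF-labelled cells held Rfc2 at 55.5, 73.0, 92.0 and 122 CPM and control cells at 66.8, 86.5, 101 and 109 CPM. The Top2a ratio was 2.20 (1.91 to 2.52) and 1.63 (1.44 to 1.84), so that Rfc2, whose library ratio has 1 in its interval, passed 2-fold with Top2a among TNF-labelled cells. Dscc1, which joins an alternative clamp loader, stood at 26.8 CPM under the TNF label (392 counts) against 25.3 CPM in the control (613 counts), a ratio of 1.06 (0.931 to 1.21). Along the classes Dscc1 had 17.7, 26.0, 39.9 and 43.7 CPM in TNF-labelled and 20.8, 27.6, 35.6 and 36.4 CPM in control cells, with Top2a ratios of 2.47 (1.95 to 3.14) and 1.75 (1.41 to 2.18). Rpa2, of the protein that coats single-stranded DNA, stood at 29.0 CPM under the TNF label (424 counts) against 46.5 CPM in the control (1126 counts), a ratio of 0.624 (0.557 to 0.699). Rpa2 ran at 21.7, 22.4, 43.6 and 46.3 CPM in TNF-labelled and 40.2, 55.1, 62.0 and 53.4 CPM in control cells, with Top2a ratios of 2.13 (1.71 to 2.66) and 1.33 (1.12 to 1.58), the second of which turned to 0.968 in thinned cells. Fen1 (ENSRNOG00000020531), the nuclease that trims the flaps between joined fragments, stood at 14.9 CPM under the TNF label (217 counts) against 33.0 CPM in the control (800 counts), a ratio of 0.450 (0.385 to 0.523). Fen1 was lower in TNF-labelled cells of every class, with 10.8, 13.6, 20.6 and 23.1 CPM against 28.2, 40.8, 41.1 and 38.6 CPM in control cells. Its Top2a ratios were 2.15 (1.56 to 2.95) and 1.37 (1.11 to 1.68). In GRCr8 Fen1 overlaps Tmem258.

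**Figure D3:**
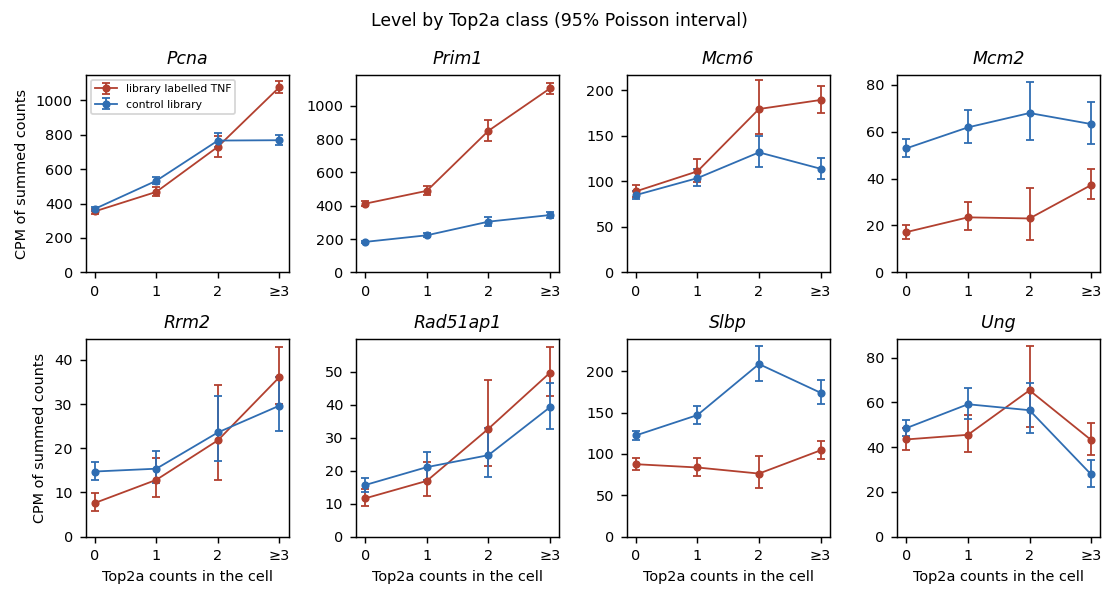
Level in CPM of 8 genes along the Top2a classes of the cells (0, 1, 2, and 3 or more counts) in the library labelled TNF (red) and the control library (blue), with exact 95% Poisson intervals and a separate linear axis from 0 for each gene. Pcna climbs from 354 to 1077 CPM in red and from 369 to 768 CPM in blue, Mcm2 and Slbp lie higher in blue in every class, Prim1 higher in red, and Ung stands at 27.8 CPM in the blue class of 3 or more.

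Of the 3 nucleotide supply genes, Rrm1 and Rrm2 passed 2-fold with Top2a in both libraries and Tyms in neither. Ribonucleotide reductase makes deoxyribonucleotides from ribonucleotides, and its small subunit Rrm2 stood at 16.3 CPM under the TNF label (238 counts) against 17.5 CPM in the control (424 counts), a ratio of 0.930 (0.790 to 1.09). TNF-labelled cells held Rrm2 at 7.59, 12.8, 21.8 and 36.1 CPM along the classes, a Top2a ratio of 4.76 (3.46 to 6.62). In control cells Rrm2 ran at 14.7, 15.4, 23.6 and 29.6 CPM, a Top2a ratio of 2.01 (1.56 to 2.57). Its interval in the TNF-labelled library lay wholly above that in the control library. Rrm2 overlaps Cys1 in GRCr8, which held 27 and 51 counts in the libraries. The large subunit Rrm1 stood at 108 CPM under the TNF label (1577 counts) against 148 CPM in the control (3575 counts), a ratio of 0.731 (0.689 to 0.776). Rrm1 ran at 73.2, 88.0, 119 and 194 CPM in TNF-labelled and 113, 157, 210.0 and 253 CPM in control cells, with Top2a ratios of 2.65 (2.37 to 2.97) and 2.24 (2.06 to 2.44). Rrm1 was thus lower in TNF-labelled cells with 0 Top2a counts, at 0.649 (0.588 to 0.715), and with 3 or more, at 0.768 (0.693 to 0.851). Tyms, thymidylate synthase, which makes the thymidine building block, stood at 50.7 CPM under the TNF label (741 counts) against 53.4 CPM in the control (1292 counts), a ratio of 0.951 (0.867 to 1.04). Along the classes Tyms had 42.0, 42.2, 75.1 and 70.3 CPM in TNF-labelled and 49.7, 51.1, 64.7 and 66.7 CPM in control cells, and its Top2a ratios of 1.67 (1.41 to 1.98) and 1.34 (1.15 to 1.57) stayed under 2.

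The genes of histone supply and chromatin maintenance had the lowest median log2 Top2a ratio of the 7 roles, 0.75 in the TNF-labelled and 0.44 in the control library. Past 2-fold were 1 of 4 tested members in the former and 0 of 5 in the latter, against 3.93% and 2.42% of all genes. These counts are too small to set apart from those shares. Slbp, which binds the stem-loop of histone messages, stood at 90.3 CPM under the TNF label (1319 counts) against 141 CPM in the control (3407 counts), a ratio of 0.642 (0.602 to 0.684). Slbp ran at 87.6, 83.6, 76.3 and 104 CPM in TNF-labelled and 122, 147, 209 and 174 CPM in control cells. The Top2a ratio of Slbp was 1.19 (1.05 to 1.36) against 1.42 (1.29 to 1.56) in the control library, where Slbp is one of the pair of genes with the larger ratio. Casp8ap2, a protein needed for histone gene expression, stood at 97.1 CPM under the TNF label (1418 counts) against 82.2 CPM in the control (1991 counts), a ratio of 1.18 (1.10 to 1.26). TNF-labelled cells held Casp8ap2 at 85.9, 97.6, 129.5 and 113 CPM and control cells at 74.7, 95.8, 87.2 and 93.0 CPM, with Top2a ratios of 1.31 (1.16 to 1.49) and 1.24 (1.09 to 1.41), whose intervals overlap. Nasp, a chaperone of histone H3 and H4, stood at 103 CPM under the TNF label (1500 counts) against 171 CPM in the control (4151 counts), a ratio of 0.599 (0.564 to 0.636). Along the classes Nasp had 79.6, 99.8, 133 and 147 CPM in TNF-labelled and 156, 173, 217 and 212 CPM in control cells, Top2a ratios of 1.84 (1.64 to 2.08) and 1.35 (1.24 to 1.47). Nasp was lower in the TNF-labelled cells of each class. Chaf1b, of the complex that places new histones behind the fork, stood at 12.7 CPM under the TNF label (185 counts) against 22.0 CPM in the control (533 counts), a ratio of 0.575 (0.484 to 0.681). Chaf1b ran at 9.46, 11.0, 12.1 and 20.9 CPM in TNF-labelled and 19.9, 24.2, 28.5 and 24.4 CPM in control cells. Its Top2a ratio was 2.21 (1.57 to 3.10) under the TNF label and 1.22 (0.942 to 1.57) in the control, where the interval includes 1.

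Cdca7 (ENSRNOG00000001514), which works with the remodeller Hells, had the lowest library ratio of the tested members. It stood at 6.92 CPM under the TNF label (101 counts) against 19.5 CPM in the control (473 counts), a ratio of 0.354 (0.283 to 0.440). Cdca7 ran at 5.86, 6.24, 6.05 and 9.88 CPM in TNF-labelled and 20.01, 17.0, 22.5 and 19.5 CPM in control cells, under 10 CPM in every TNF-labelled class. In the control library its Top2a ratio was 0.972 (0.728 to 1.28), and the value of 1.69 (1.05 to 2.69) in the TNF-labelled library rests on 44 and 35 counts in the classes of 0 and 3 or more and turned to 0.865 in cells thinned to 1600 counts. Of the 2825 thinned TNF-labelled cells, 30 held a Cdca7 count. Uhrf1, which keeps DNA methylation through replication, was scarce at 3.49 CPM under the TNF label (51 counts) against 3.26 CPM in the control (79 counts). Its 2 end classes held 14 and 25 counts in TNF-labelled and 32 and 19 counts in control cells, Top2a ratios of 3.78 (1.89 to 7.87) and 2.64 (1.41 to 4.80). Hells itself had 9 counts in the TNF-labelled and 31 in the control library, with 4 and 1 in the TNF-labelled and 13 and 4 in the control classes of 0 and 3 or more, too few for a ratio. Both are known S phase genes, and at these counts only the direction of Uhrf1 with Top2a could be seen.

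Of the cyclin, E2F and protein turnover genes, Ccne2 passed 2-fold with Top2a in the TNF-labelled library and E2f8 in the control library. Ccne2, a cyclin E that drives entry into S phase, stood at 54.6 CPM under the TNF label (797 counts) against 60.0 CPM in the control (1452 counts), a ratio of 0.910 (0.833 to 0.993) that TMM scaling put at 1.02. Ccne2 ran at 38.5, 49.9, 79.9 and 86.4 CPM in TNF-labelled and 53.3, 71.6, 75.1 and 64.2 CPM in control cells. The Top2a ratio of Ccne2 was 2.24 (1.90 to 2.64) against 1.21 (1.03 to 1.41), with intervals that did not overlap. Ccne2 overlaps Ints8 in GRCr8, which held 1745 and 1779 counts in the TNF-labelled and control libraries, a ratio of 1.63 (1.52 to 1.74). The Top2a ratios of Ints8 were 0.888 (0.786 to 1.00) and 1.00 (0.868 to 1.16). The part of Ints8 in the Ccne2 counts was not tested. E2f8, an E2F repressor that is itself switched on in S phase, stood at 4.45 CPM under the TNF label (65 counts) against 9.42 CPM in the control (228 counts). Along the classes E2f8 had 2.53, 4.04, 1.21 and 9.59 CPM in TNF-labelled and 7.36, 11.4, 9.87 and 15.4 CPM in control cells. The Top2a ratio was 2.10 (1.47 to 2.96) in control cells, and the value of 3.79 (2.10 to 7.04) in TNF-labelled cells came from levels under 10 CPM. Dtl directs the ubiquitin ligase that destroys Cdt1 in S phase, and stood at 34.9 CPM under the TNF label (509 counts) against 40.2 CPM in the control (974 counts), a ratio of 0.866 (0.777 to 0.965). Dtl ran at 28.4, 36.7, 46.0 and 44.6 CPM in TNF-labelled and 32.2, 48.2, 47.7 and 60.2 CPM in control cells, with the larger Top2a ratio in the control library, 1.87 (1.58 to 2.22) against 1.57 (1.27 to 1.94). Ubr7, a protein with a ubiquitin ligase domain, stood at 26.6 CPM under the TNF label (388 counts) against 24.0 CPM in the control (581 counts), a ratio of 1.11 (0.971 to 1.26). TNF-labelled cells held Ubr7 at 22.9, 21.6, 47.2 and 33.3 CPM and control cells at 22.9, 28.0, 32.4 and 18.2 CPM. Ubr7 had a Top2a ratio of 1.45 (1.14 to 1.85) under the TNF label and 0.795 (0.592 to 1.05) in the control, where the interval includes 1.

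The 3 genes grouped here as fork checkpoint genes, of which Usp1 is a ubiquitin-removing enzyme, had ratios above 1 in every one of the 3 comparisons. Between the libraries the interval of Clspn included 1. Usp1 and Clspn passed 2-fold with Top2a in both libraries. Usp1, the enzyme that takes ubiquitin off Pcna and Fancd2, stood at 251 CPM under the TNF label (3668 counts) against 161 CPM in the control (3906 counts), a ratio of 1.56 (1.49 to 1.63). Usp1 ran at 167, 218, 326 and 439 CPM in TNF-labelled and 128, 161, 218 and 279 CPM in control cells, with Top2a ratios of 2.63 (2.44 to 2.84) and 2.18 (2.01 to 2.36). TNF-labelled cells held more Usp1 at 0 Top2a counts, by 1.30 (1.21 to 1.40), and at 3 or more, by 1.58 (1.45 to 1.71). Clspn encodes claspin, which passes the stalled-fork signal from Atr to Chek1, and stood at 12.3 CPM under the TNF label (180 counts) against 10.4 CPM in the control (251 counts), a ratio of 1.19 (0.976 to 1.45). Along the classes Clspn had 6.66, 11.0, 19.4 and 23.7 CPM in TNF-labelled and 6.53, 14.3, 19.7 and 16.4 CPM in control cells. The Top2a ratios of Clspn, 3.56 (2.48 to 5.16) and 2.51 (1.76 to 3.55), overlapped in their intervals. Tipin, of the fork protection complex, stood at 34.4 CPM under the TNF label (503 counts) against 28.3 CPM in the control (685 counts), a ratio of 1.22 (1.08 to 1.37). Tipin ran at 26.1, 36.3, 38.7 and 49.7 CPM in TNF-labelled and 22.3, 31.4, 47.7 and 39.5 CPM in control cells, with overlapping Top2a ratios of 1.90 (1.54 to 2.34) and 1.77 (1.43 to 2.18).

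Of the 6 repair genes, Blm and Rad51ap1 passed 2-fold with Top2a in both libraries, and Ung had the lowest Top2a ratio of the members in both. Blm, the helicase mutated in Bloom syndrome, stood at 19.99 CPM under the TNF label (292 counts) against 13.1 CPM in the control (318 counts), a ratio of 1.52 (1.29 to 1.79). Blm ran at 9.19, 19.1, 32.7 and 40.6 CPM in TNF-labelled and 10.1, 12.6, 18.6 and 24.4 CPM in control cells, with Top2a ratios of 4.42 (3.30 to 5.98) and 2.42 (1.82 to 3.21). At 0 Top2a counts the library ratio of Blm was 0.912 (0.675 to 1.22), and in the class of 3 or more it was 1.67 (1.26 to 2.22). Rad51ap1, a factor of homologous recombination, stood at 23.0 CPM under the TNF label (336 counts) against 20.5 CPM in the control (497 counts), a ratio of 1.12 (0.973 to 1.29). Along the classes Rad51ap1 had 11.6, 16.9, 32.7 and 49.7 CPM in TNF-labelled and 15.6, 21.0, 24.7 and 39.2 CPM in control cells. Its Top2a ratios were 4.29 (3.30 to 5.61) and 2.51 (2.00 to 3.13), so that Rad51ap1 passed 2-fold in both libraries with intervals that did not overlap. Ung, the glycosylase that takes uracil out of DNA, stood at 45.0 CPM under the TNF label (657 counts) against 48.4 CPM in the control (1172 counts), a ratio of 0.929 (0.843 to 1.02) that TMM scaling put at 1.04. Ung ran at 43.4, 45.5, 65.4 and 43.2 CPM in TNF-labelled and 48.5, 59.1, 56.5 and 27.8 CPM in control cells. Ung had a Top2a ratio of 0.994 (0.815 to 1.21) under the TNF label and 0.573 (0.455 to 0.715) in the control, where its whole interval lay below 1, unlike any other member. In control cells Ung was also lower in the class of 3 or more than in the class of 2, with intervals that did not overlap, and in TNF-labelled cells the intervals of these classes overlapped.

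Wdr76 (ENSRNOG00000022491), whose product joins DNA damage and ubiquitin complexes, had the highest library ratio of the tested members. It stood at 16.8 CPM under the TNF label (245 counts) against 4.59 CPM in the control (111 counts), a ratio of 3.66 (2.91 to 4.62). Wdr76 ran at 15.0, 15.4, 18.2 and 21.2 CPM in TNF-labelled and 3.47, 5.89, 4.94 and 7.41 CPM in control cells. TNF-labelled cells were higher at 0 Top2a counts, by 4.33 (3.08 to 6.17), and at 3 or more, by 2.86 (1.78 to 4.73). The Top2a ratio of Wdr76 was 1.41 (1.04 to 1.90) under the TNF label, and the 2.13 (1.25 to 3.54) of the control came from levels under 10 CPM and turned to 0.979 with a class of 5 or more Top2a counts. Exo1, a nuclease of mismatch repair and end resection, stood at 8.22 CPM under the TNF label (120 counts) against 6.16 CPM in the control (149 counts). Exo1 ran at 5.73, 6.60, 12.1 and 13.8 CPM in TNF-labelled and 4.79, 7.58, 8.77 and 8.65 CPM in control cells, with Top2a ratios of 2.41 (1.57 to 3.73) and 1.80 (1.12 to 2.84). The first of these turned to 0.865 when cells were thinned to 1600 counts and classed by 0 against 2 or more Top2a counts. That value rests on few counts, since 33 of the 2825 thinned TNF-labelled cells held an Exo1 count. Brip1, a helicase that works with Brca1, had 18 counts in the TNF-labelled and 11 in the control library, with 4 and 7 in the TNF-labelled and 8 and 1 in the control classes of 0 and 3 or more, and no ratio is given.

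The same genes can be read cell by cell. With each cell thinned to 1600 counts, which left out 632 shallower TNF-labelled and 555 control cells, the median cell with 0 Top2a counts held 3 counts of the 40 genes in both libraries. In the class of 3 or more the median was 7 in TNF-labelled and 6 in control cells. A cell with 8 or more member counts was found in 8.55% (7.23 to 10.0) of TNF-labelled cells with 0 Top2a counts and 49.1% (44.6 to 53.6) of those with 3 or more. In the control library the shares were 9.59% (8.64 to 10.6) and 32.7% (27.7 to 37.9). The classes overlapped in both libraries, and with the member counts thinned the step was wider in the TNF-labelled cells, although the classes themselves were set on Top2a counts before thinning, at unequal depths. Without thinning the 4 shares were 35.2%, 87.9%, 35.3% and 94.8%, at the unequal depths given above, and the step was then wider in the control cells, whose top class was the deepest. No cell type that should lack these genes was present, so the share that free RNA gives was not measured.

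**Figure D4:**
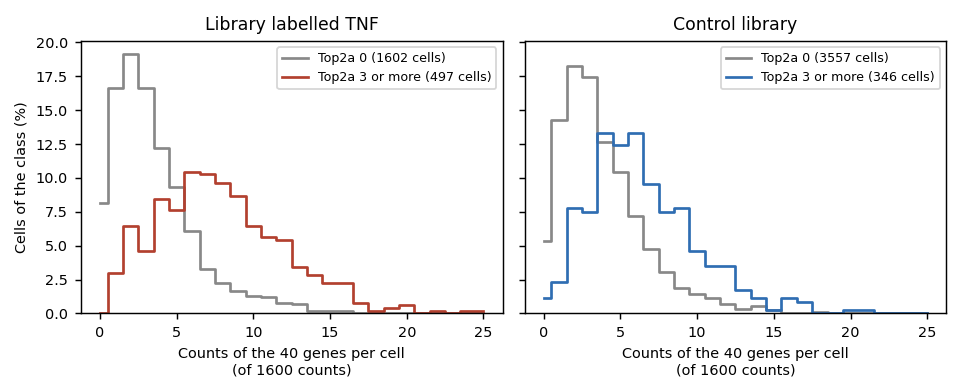
Share of cells (percent of the class) by the number of counts of the 40 genes, each cell thinned to 1600 counts, in the library labelled TNF (left) and the control library (right), for cells with 0 Top2a counts (grey) and with 3 or more (colour). The coloured curve has its median at 7 counts on the left and 6 on the right, and the grey curves have theirs at 3.

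Comparing the libraries within a Top2a class separated the members further. In cells with 0 Top2a counts the median log2 ratio of the 40 members, TNF-labelled over control, was -0.26, and in cells with 3 or more it was 0.26, against -0.07 and -0.06 over all genes tested. The 10 genes of helicase loading and origin firing summed to 437 CPM in TNF-labelled and 622 CPM in control cells with 0 Top2a counts. In cells with 3 or more they summed to 892 and 901 CPM. That sum was thus lower in TNF-labelled cells without Top2a and near that of the control in the class of 3 or more. It includes Cdc6 and Gmnn, which are not parts of the helicase. In the class of 3 or more Gmnn stood at 255 against 202 CPM and Cdc6 at 111 against 42.6 CPM. There the intervals of Mcm2, Mcm3, Mcm4, Mcm5 and Mcm7 still lay below 1. Those of Mcm6, Cdc6 and Gmnn lay above it, and those of Cdc45 and Gins2 included it. Gins2 went from 0.362 (0.251 to 0.509) to 0.864 (0.580 to 1.29), Rrm2 from 0.515 (0.378 to 0.693) to 1.22 (0.928 to 1.60) and Ccne2 from 0.722 (0.629 to 0.828) to 1.34 (1.12 to 1.61). Slbp went the other way, from 0.716 (0.653 to 0.783) to 0.599 (0.524 to 0.685). These class ratios carry the differences in Top2a level and depth between the top classes, whose part was not tested.

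**Figure D5:**
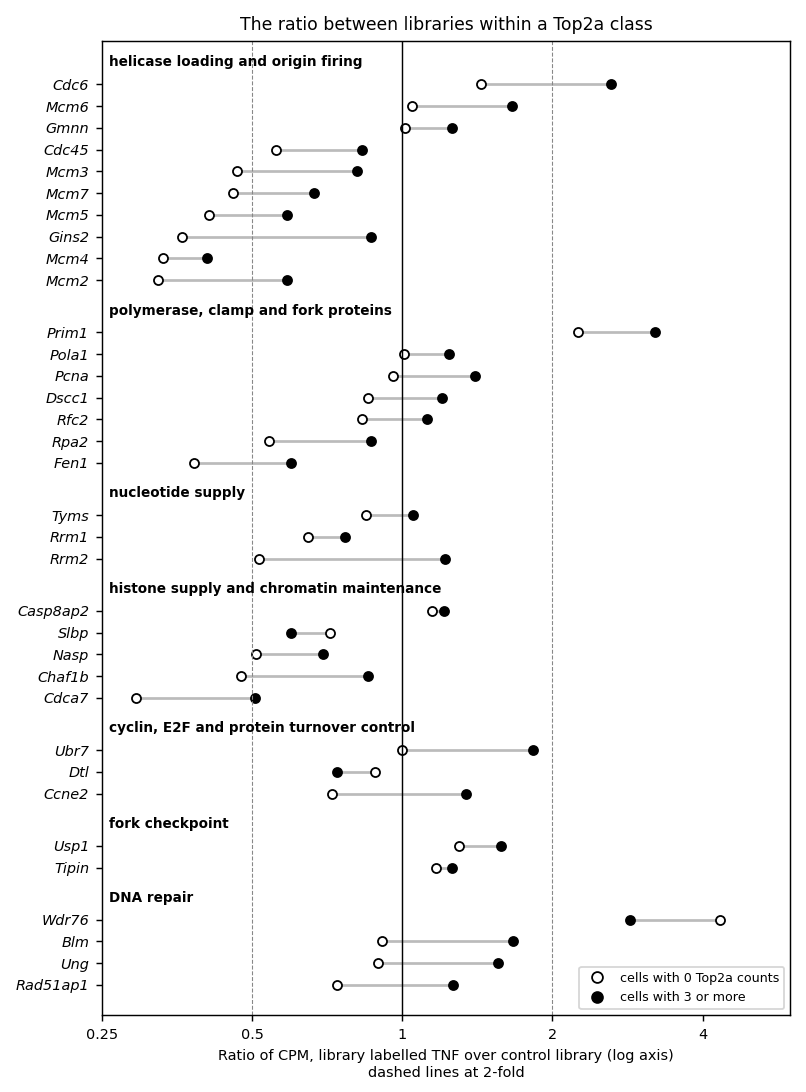
Ratio of CPM in the library labelled TNF over the control library (log axis) within cells with 0 Top2a counts (open) and within cells with 3 or more (filled), for 34 genes grouped by role. Filled points lie right of open ones for most genes; Slbp, Dtl and Wdr76 lie the other way, and Mcm4 is below 0.5 in both classes.

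Other genes of the same machinery, from a list of 47 of which 46 were found, differed with Top2a as well. With Top2a, 22 of 44 tested passed 2-fold under the TNF label and 5 of 43 in the control, against 3.93% and 2.42% of all genes. In both 0 were lower, and the median log2 ratios were 0.97 and 0.59. Ticrr, which helps start origins, had the largest Top2a ratios, 5.22 (4.07 to 6.73) in the TNF-labelled and 3.04 (2.46 to 3.77) in the control library. Gins4 of the GINS complex followed at 3.34 (2.90 to 3.83) and 2.16 (1.86 to 2.51), with Pold1, the catalytic subunit of polymerase delta, at 3.18 (2.05 to 4.99) in the TNF-labelled library and the histone chaperone Asf1b at 2.29 (2.01 to 2.59) in the control library. Between the libraries 0 of 42 were at least 2-fold higher and 2 lower, against 5.27% and 8.19% of all genes. The 2 lower were Pold2, another polymerase delta subunit, at 13.5 against 31.5 CPM, and Rfc4, a clamp loader subunit, at 46.0 against 144 CPM. Their ratios were 0.428 (0.364 to 0.501) and 0.320 (0.294 to 0.347).

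Of the list of retinoblastoma, E2F and cyclin genes, past 2-fold with Top2a were 7 of 25 tested in the TNF-labelled and 6 of 25 in the control library, with 0 lower, and median log2 ratios of 0.30 and 0.35. The shares past 2-fold over all genes were 3.93% and 2.42%. E2f7, a repressor akin to E2f8, had Top2a ratios of 5.81 (3.81 to 9.07) and 3.26 (2.16 to 4.89). Ccna2, the cyclin A of S and G2 phase, had 2.75 (1.99 to 3.80) and 2.92 (2.54 to 3.35). Between the libraries 1 of 26 was at least 2-fold higher, against 5.27% of all genes, the cyclin D gene Ccnd2 at 11.0 against 3.64 CPM. Lower were 5, against 8.19% of all genes, with Cdk2, the kinase that cyclins E and A bind, at 4.86 against 17.2 CPM and Ccna2 at 14.8 against 49.9 CPM, then Lin54 at 16.6 against 46.9 CPM and the kinase inhibitor Cdkn2c at 33.0 against 71.8 CPM. The G2 and M phase genes, which share their phase with Top2a, passed 2-fold with it for 42 of 48 in the TNF-labelled and 37 of 48 in the control library, against the same 3.93% and 2.42%. Their median log2 ratios of 1.78 and 1.39 were above those of the replication genes. Nusap1, a spindle protein, had Top2a ratios of 8.18 (6.91 to 9.73) and 4.42 (3.90 to 5.01). Between the libraries 3 of 47 were higher and 3 lower, near the 5.27% and 8.19% of all genes. Among them were the centromere motor Cenpe at 195 against 91.2 CPM and the mitotic kinases Cdk1 at 53.5 against 134 CPM and Aurkb at 9.93 against 35.1 CPM.

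Some of these counts carry a doubt of identity. The GRCr8 annotation names pseudogenes or like-named copies of Mcm2, Mcm4, Mcm7, Gmnn, Pcna, Rrm1, Rrm2, Nasp, Slbp, Cdca7, Dtl, Ubr7, Tipin, Ung and Wdr76, between which reads can be shared or lost. It also places Gins2 over Gse1, Uhrf1 over Arrdc5 and Clspn over C5h1orf216, and whether the counting used strand is not stated in the labels.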

How the data were processed

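Per the labels, frozen IEC-6 cells were thawed, washed and made into single-cell libraries using the 10K Genomics kit. What the authors deposited is, per library, whole-number counts per gene and cell, on build Rnor_5.0 per the submitters' processing notes. Not given in the sources used here are the aligner, the counter, the barcode filter and whether a count is a unique molecule. Cells were kept from 500 counts and 300 genes up, with mitochondrial counts of 20% or less, which left 3457 of 3457 and 5712 of 5713. Counts were summed per library or Top2a class and scaled to CPM, and a side under 3 counts entered a ratio at 3. Ratios carry exact conditional binomial, levels exact Poisson and shares exact Clopper-Pearson intervals. Doublets were left in. Per-cell shares used cells thinned to 1600 counts, the 20th percentile of the shallower library rounded down. The computation was tested on simulated data. Every member is named with a value, each with its classes where it was among the 2 highest or 2 lowest of its role in a comparison or past the size rule, and up to 4 genes per other list and direction. The members and lists were chosen with earlier results of these data known. Tools were Python 3.11.15, numpy 2.4.6, scipy 1.17.1, pandas 2.3.3 and edgeR 4.0.16 for TMM factors alone. Alternatives were TMM factors, other CPM minimums and fold sizes, thinning, means of single cells, no cell filter, other classes and depth bands, and, chosen after seeing the data, leaving out cells of the 24 shared barcodes.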

Additional observations from a re-analysis of the deposited data

How the results depend on the processing

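No paired analysis was possible because each group is 1 library. Between the libraries, the 6 members past the size rule kept their direction in every setting run. The number higher, 2, became 1 with a minimum of 20 CPM, where Wdr76 drops out, and 5 of 35 at 1.5-fold, against 16.6% of all genes. The number lower, 4, became 12 at 1.5-fold, against 22.2% of all genes, 9 in cells with 0 Top2a counts, against 8.65%, and 1 in cells with 3 or more, where the median log2 ratio was 0.26. For the Top2a ratio in the TNF-labelled library, 21 of 22 members past 2-fold kept their direction. Exo1 turned to 0.865 in thinned cells, where 33 of 2825 cells held an Exo1 count, so the turn rests on few counts. Its cause was not tested. In the thinned cells the median log2 ratio of the members was 0.87 in place of 1.14. With classes of Mki67 it was 0.85 with 12 members past 2-fold. In the control library all 8 members past 2-fold kept their direction. Their number was 18 at 1.5-fold, against 5.10% of all genes, with 1 lower, against 3.80%. It was 4 in thinned cells, against 6.06% of all genes, and 13 in cells of 3000 to 10000 counts, against 3.46%. The median log2 ratio of the members in the control library was 0.61 in thinned cells and 0.62 with classes of Mki67, in place of 0.66. The medians of the 2 libraries thus lay closer together in these settings. Of the members under 2-fold or under 10 CPM whose interval left out 1, Cdca7 in the TNF-labelled library and Mcm2 and Rpa2 in the control turned in thinned cells, and Wdr76 in the control with 5 or more Top2a counts, as given above. Between the libraries Pcna and Blm turned in cells with 0 Top2a counts, to 0.961 and 0.912. Ccne2 turned to 1.02 with TMM factors and to 1.34 in cells with 3 or more. The cause of these turns was not tested. Leaving out cells of shared barcodes changed no count. Depth limits Hells and Brip1, whose counts were too few for a ratio.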
